A study of Mus musculus with 6 samples.

Results

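The genes described here build contacts between epithelial cells: the claudins Cldn2, Cldn3 and Cldn4 of the tight junction, the gap junction connexin gene Gjb2 (connexin 26) and the desmosomal plakin gene Ppl (periplakin). They were chosen by name, and every probe set that the platform annotation gives to them was taken, which made 7 probe sets of 5 genes among 1382 probe sets in the deposited table. Cldn3 had 3 probe sets and the other members 1 each. Affymetrix arrays measured RNA of whole uteri from pregnant mice at 3.5 days post coitum, with 3 arrays of Stat3 d/d uteri and 3 of Stat3 f/f uteri. Here d/d is the usual sign for the deleted and f/f for the floxed allele of Stat3, which encodes a transcription factor activated by cytokines. No strain, age or Cre driver, which would say in which cells Stat3 was deleted, is named in the labels. Nothing ties the arrays to separate animals, so each p-value covers the spread among these samples alone, and that spread could be technical.

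Tight junctions seal the space between neighbouring epithelial cells, and the claudins a cell makes set how leaky that seal is and to which ions. Sealing claudins such as Cldn1, Cldn3 and Cldn4 tighten it, although Cldn4 can also take part in an anion pathway in the kidney, whereas Cldn2 and Cldn10 form pores for ions, and Cldn2 also passes water. Gap junctions are channels that join the cytoplasm of neighbouring cells, and in the rodent uterus Gjb2 is an epithelial connexin whose transcript responds to ovarian steroids. Desmosomes anchor keratin filaments at the membrane, and periplakin is a linker of filament and membrane. At 3.5 days post coitum the uterine epithelium of the mouse is close to accepting the embryo, a stage at which its junctions are known to be remodelled.

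The windows of 250 bases upstream of the annotated start are shown for the 4 members that the RefSeq promoter table holds (build GRCm38.p6), because Cldn3 and Cldn4 moved together and Cldn2 and Gjb2 moved the other way. They lie at chrX:139800558-139800807 on the plus strand (Cldn2), chr5:134985964-134986213 on the plus strand (Cldn3), chr5:134946935-134947184 on the minus strand (Cldn4) and chr14:57104703-57104952 on the minus strand (Gjb2). Capitals mark matches on either strand to any of 5 motifs: the STAT element TTCNNNGAA, the AP-1 element TGANTCA, the E-box CACCTG, the TATA box TATAAA and the GC box GGGCGG.
Cldn2: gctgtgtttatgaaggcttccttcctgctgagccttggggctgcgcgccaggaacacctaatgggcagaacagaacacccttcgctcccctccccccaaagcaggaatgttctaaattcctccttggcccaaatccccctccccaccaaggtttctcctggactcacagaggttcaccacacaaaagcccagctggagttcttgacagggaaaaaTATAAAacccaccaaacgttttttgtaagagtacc
Gjb2: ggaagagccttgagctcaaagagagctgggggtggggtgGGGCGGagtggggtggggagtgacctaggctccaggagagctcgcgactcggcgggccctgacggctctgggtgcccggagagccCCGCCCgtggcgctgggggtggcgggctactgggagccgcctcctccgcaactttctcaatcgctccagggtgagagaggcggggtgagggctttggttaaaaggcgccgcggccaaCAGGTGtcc
Cldn3: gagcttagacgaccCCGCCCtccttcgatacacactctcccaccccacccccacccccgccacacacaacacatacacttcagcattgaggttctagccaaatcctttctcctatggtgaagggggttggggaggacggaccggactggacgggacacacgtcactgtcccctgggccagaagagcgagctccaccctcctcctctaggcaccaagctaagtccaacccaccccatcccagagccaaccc
Cldn4: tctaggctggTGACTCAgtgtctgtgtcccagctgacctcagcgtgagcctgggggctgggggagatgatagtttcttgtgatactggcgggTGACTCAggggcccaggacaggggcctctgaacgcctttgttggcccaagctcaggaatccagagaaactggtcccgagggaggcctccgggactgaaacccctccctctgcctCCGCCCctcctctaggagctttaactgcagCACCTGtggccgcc

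The letters of the STAT element were found in 0 of these 4 windows and in 7.02% of 32807 such windows of annotated starts. The Cldn4 window held 2 AP-1 elements, both TGACTCA, which begin 240 and 158 bases upstream of the start, and 6.75% of all windows held at least 1. The E-box, a motif bound by the Snail and ZEB repressors of epithelial genes, stood 14 bases upstream in Cldn4, which was higher in Stat3 d/d, and 9 bases upstream in Gjb2, which was lower, against 17.2% of all windows. Only the Cldn2 window of the 4 held a TATA box, 35 bases upstream (12.4% of all windows), and it was the one without a GC box (32.7% of all windows). The matches had no overlap with each other in these windows. The motifs were chosen with the windows in view, and a match describes letters, not binding. No motif was common to the 4 windows. Cldn3 and Cldn4 are next to each other among the protein-coding genes of chromosome 5 in the RefSeq table, while of the genes on either side of Cldn2, Gjb2 and Ppl none was in the deposited table. Among those neighbours are Gja3 and Gjb6, connexin genes that flank Gjb2.

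The deposited table is a selection on the comparison made here, and this bears on every count. The ratio of its group means is at least 1.50 for each probe set, and 1382 of 1382 (100%) have groups that do not overlap. In limma 100% of the probe sets passed an adjusted p of 0.05, 67.4% as higher and 32.6% as lower in Stat3 d/d. The members passed likewise, 5 probe sets as higher and 2 as lower, a split of the same order as that of the table. Their p-values therefore describe the spread and support nothing. Stat3 itself was lower in Stat3 d/d on both of its probe sets, at 41.0% and 42.6% of the Stat3 f/f mean, and the brighter one read 101 to 131 in Stat3 d/d, against 243 to 356 in Stat3 f/f. Their place relative to the deleted part was not examined.

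Among the pore-forming claudins, Cldn2 was lower in Stat3 d/d. Its intensity was 6.85, 8.01 and 6.55 in Stat3 d/d uteri, against 15.2, 9.96 and 12.4 in Stat3 f/f uteri (linear scale, arrays in the order of their replicate numbers). The Stat3 d/d arrays lay close together, and the lowest Stat3 f/f array was not far above them. The means were 7.14 ± 0.77 in Stat3 d/d and 12.5 ± 2.61 in Stat3 f/f (SD, n = 3 each), a log2 change of -0.72 (SE 0.19, adjusted p = 0.00475). The probe set is dim. Its mean over the 6 arrays is under 13.4, the 25th percentile of the table, whose lowest value is 2.47, and no detection calls were used here. In whole tissue, fewer cells of a type and less RNA per cell cannot be told apart, which holds for each result here.

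Cldn10, the other pore-forming claudin in the table and no member, was also lower. It read 108, 135 and 86.7 in Stat3 d/d, against 207, 149.5 and 232 in Stat3 f/f. Its log2 change was -0.83 (SE 0.22), and the gap between the groups was narrow, between Stat3 d/d replicate 2 and Stat3 f/f replicate 2. The suffix of its probe set is one that Affymetrix gives where probes share sequence with other transcripts, and its isoforms, which form pores for different ions, were not told apart.

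The 3 sealing claudins in the table, of 15 on the list, were higher in Stat3 d/d as deposited, and none of them passed after median centring or quantile normalization. Cldn4, a barrier claudin also known as a receptor of the Clostridium perfringens enterotoxin, read 111, 90.0 and 91.9 in Stat3 d/d, against 61.5, 56.7 and 62.6 in Stat3 f/f. The Stat3 f/f arrays were tightly grouped, and Stat3 d/d replicate 1 was the highest. Its means were 97.5 ± 11.4 in Stat3 d/d and 60.2 ± 3.13 in Stat3 f/f (SD, n = 3 each), which is 1.62-fold higher (log2 change 0.68, SE 0.17, adjusted p = 0.00339). After median centring its change was 0.21 (adjusted p = 0.255).

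Cldn3, a second barrier claudin and enterotoxin receptor, was read by 3 probe sets that moved alike. The brightest gave 1099, 938 and 986 in Stat3 d/d, against 629.8, 758 and 453 in Stat3 f/f. The second gave 1035, 869 and 929.7 in Stat3 d/d, against 551, 713 and 424 in Stat3 f/f. The third gave 515, 463 and 455 in Stat3 d/d, against 318, 320.4 and 211 in Stat3 f/f. Stat3 f/f replicate 4 was the lowest array on each of them. The log2 changes were 0.74, 0.78 and 0.78 (SE 0.21, 0.21 and 0.20), or 1.64-fold, 1.68-fold and 1.69-fold higher in Stat3 d/d by the group means. Without Stat3 f/f replicate 4 these changes were 0.54, 0.59 and 0.58. Over the 6 arrays the probe sets of Cldn3 had correlations of log2 values from 0.97 to 0.997, a description of probe sets for the same transcript. The 2 brighter ones carry a suffix for probes that can also match other transcripts.

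Cldn1, a sealing claudin of many epithelia and no member, stood beside them with 77.3, 51.2 and 55.2 in Stat3 d/d, against 42.6, 30.8 and 40.6 in Stat3 f/f (log2 change 0.66, SE 0.21), or 0.20 after median centring (adjusted p = 0.377). Its groups came closest between Stat3 d/d replicate 2 and Stat3 f/f replicate 1.

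**Figure D1:**
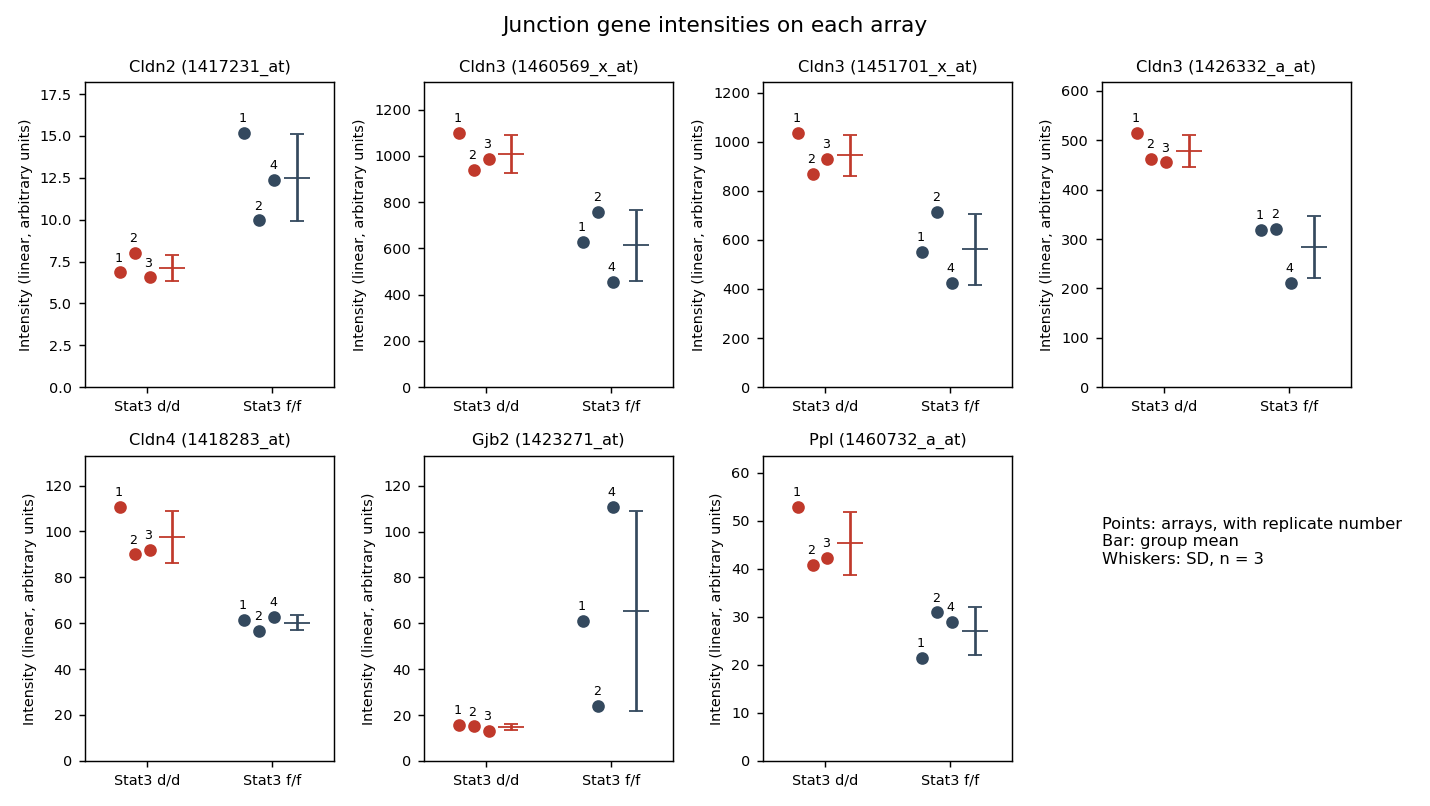
Intensity (linear scale, arbitrary units, y axis from 0) of the 7 member probe sets on each array, Stat3 d/d left and Stat3 f/f right; points are arrays with their replicate number, and the bar with whiskers is the mean with SD (n = 3). The groups do not overlap in any panel, as for 100% of the probe sets in the table, and the Stat3 f/f arrays of Gjb2 spread from 23.9 to 111.

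Gjb2 had the deepest fall of the members. It read 15.6, 15.0 and 13.1 in Stat3 d/d, against 61.0, 23.9 and 111 in Stat3 f/f. The Stat3 d/d arrays were nearly equal, while the Stat3 f/f arrays were far apart, and Stat3 f/f replicate 2 lay nearest to Stat3 d/d. The means were 14.6 ± 1.32 in Stat3 d/d and 65.2 ± 43.6 in Stat3 f/f (SD, n = 3 each), so Stat3 d/d kept 22.3% of the Stat3 f/f mean. The log2 change was -1.84 (SE 0.42, 95% confidence interval from -2.77 to -0.91, adjusted p = 0.00252), rank 28 among the 451 lower probe sets. The SD of the log2 values was 0.12 in Stat3 d/d and 1.09 in Stat3 f/f. In Stat3 f/f this spread was larger than that of 99.4% of the probe sets in the table, where the median SD was 0.22. The size of the change therefore depends on the arrays kept: it was -2.42 without Stat3 f/f replicate 2 and -1.34 without Stat3 f/f replicate 4.

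Ppl, whose protein ties keratin filaments to desmosomes and to the cornified envelope of stratified epithelia, was higher in Stat3 d/d. It read 52.9, 40.7 and 42.3 in Stat3 d/d, against 21.4, 30.9 and 28.9 in Stat3 f/f. Stat3 d/d replicate 1 was the highest array and Stat3 f/f replicate 1 the lowest. The means were 45.3 ± 6.59 in Stat3 d/d and 27.1 ± 4.99 in Stat3 f/f (SD, n = 3 each), 1.67-fold higher (log2 change 0.73, SE 0.19, adjusted p = 0.00494), or 0.26 on the log2 scale after median centring (adjusted p = 0.267).

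Apart from Gjb2, the members changed by amounts that are ordinary in this table. The higher ones ranked between 595 and 712 among 931 higher probe sets, whose median log2 change was 0.93. Cldn2 ranked 284 among 451 lower probe sets, whose median was -0.79. Their group means differed by 1.62-fold to 1.75-fold, close to the smallest ratio in the table. A probe set of these genes with a smaller difference would not be in it.

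**Figure D2:**
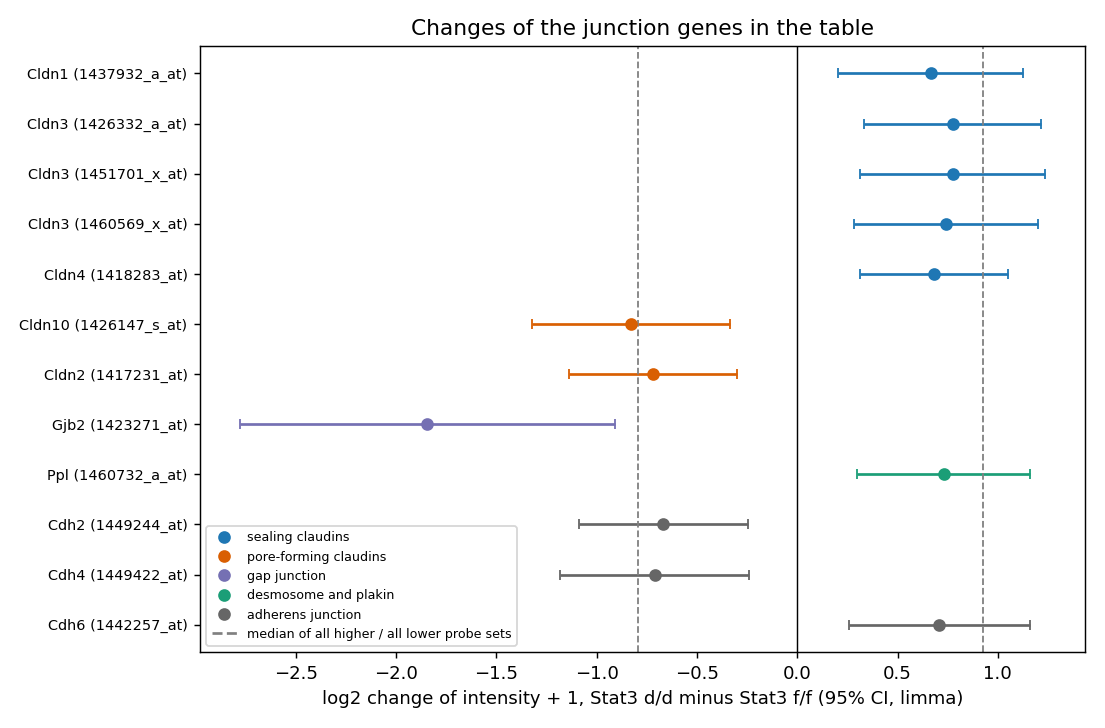
Log2 change of intensity + 1 (x axis, Stat3 d/d minus Stat3 f/f, with the 95% confidence interval from limma) for each probe set of the 10 junction genes in the table, coloured by list; dashed lines are the medians of all higher (0.93) and all lower (-0.79) probe sets. The 3 sealing claudins in the table lie right of 0, the 2 pore-forming claudins and Gjb2 left of it.

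Lists of junction genes gave the members their setting. Of 117 genes on the junction lists 10 were in the table, 5 higher and 5 lower, beside 660 higher and 327 lower of the 987 genes of the table. The median log2 change of the 10 was -0.00089, beside 0.70 over all genes of the table. That median falls in the gap between the rises and the falls, as the selection keeps no small change, and does not describe any of these genes. Sealing claudins were present with 3 of 15 genes, all 3 higher (median 0.68), and pore-forming claudins with 2 of 5 genes, both lower (median -0.77). Gjb2 was the single gene present of 21 gap junction genes, and Ppl of 17 desmosome and plakin genes. Periplakin's partner envoplakin (Evpl) was therefore not in the table, nor were the desmosomal cadherins. Of the other tight junction genes, among them Ocln and the scaffold gene Tjp1, 0 of 27 were in it, and 0 of 9 hemidesmosome genes. These genes were not analysed here, and nothing is known from this table about how they differed.

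The sizes of the rises and the falls depend on the scaling of the arrays. Centring each array on its median in the table lowered the median change of all probe sets by 0.47 on the log2 scale, to 0.24, and quantile normalization brought it to 0.25. Centring took the same 0.47 from every change, so any rise had to shrink and any fall to grow. As 67.4% of the selected probe sets are higher, scaling within this table removes part of the group difference by which it was selected. Calls lost or kept under it are therefore no test of the members. After centring, Cldn4 was higher by 0.21, Cldn3 by 0.28 to 0.31 and Ppl by 0.26, and after quantile normalization these were 0.30, 0.26 to 0.31 and 0.24. None of them passed limma then (adjusted p from 0.128 to 0.336), and 0 of the 5 had an unadjusted p under 0.05. The share of all probe sets was not counted for the unadjusted p or for quantile normalization. So 0 of the 5 higher member probe sets kept the call. Of the 931 higher probe sets, 422 passed as higher after centring (30.5% of all 1382). Cldn2 (-1.18) and Gjb2 (-2.31) passed after centring. So did 451 probe sets as lower (32.6% of all), the same number as before centring, so this does not set the 2 genes apart. Under 45000 assumed tests, about the number on such an array, 37.5% of the probe sets in the table passed and 0 of the 7 member probe sets (adjusted p from 0.0820 to 0.198), although all 7 had an unadjusted p under 0.05. A table selected in this way does not show which scaling fits the whole array.

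**Figure D3:**
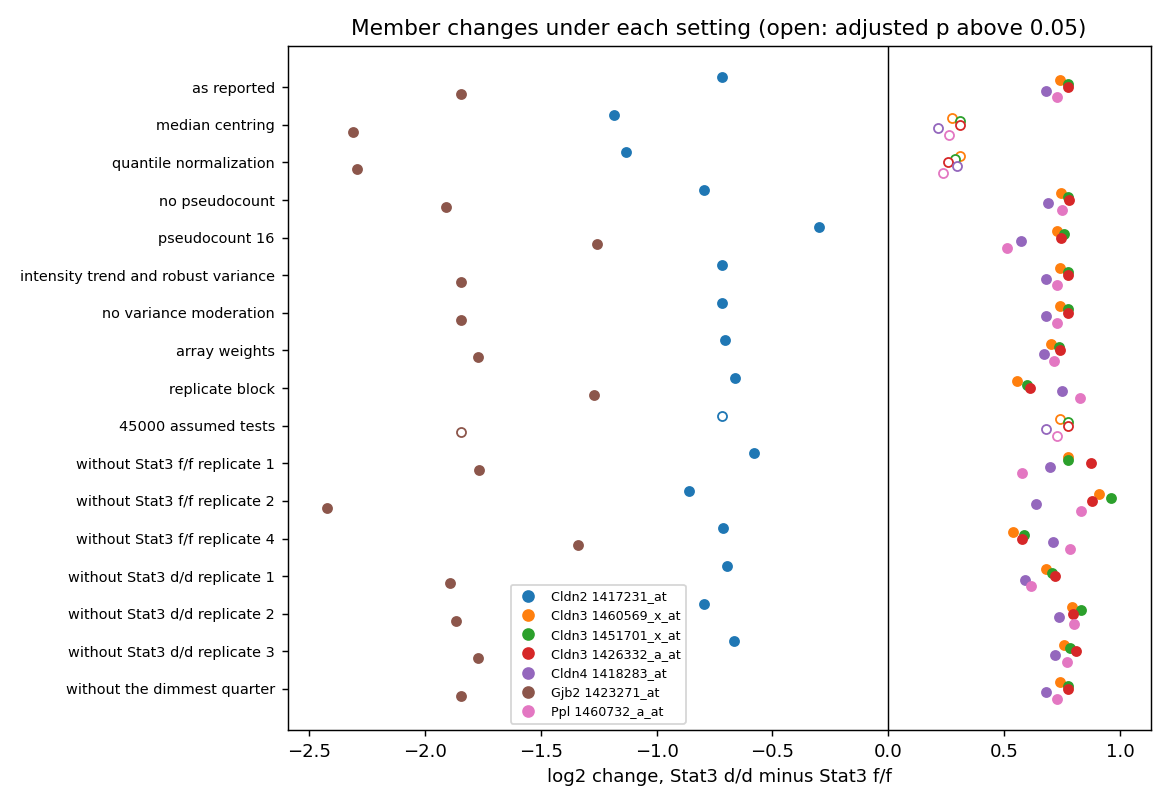
Log2 change (x axis, Stat3 d/d minus Stat3 f/f) of the 7 member probe sets under each setting (y axis); open points have an adjusted p above 0.05. The 5 higher probe sets move toward 0 under median centring and quantile normalization, where the changes of Cldn2 and Gjb2 become larger.

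Differences between members within an array do not change when all log2 values of the array are shifted, as by median centring. A factor on the intensities can change them for dim genes, through the pseudocount of 1 added before the log2. The differences also rest on values by which the table was selected. A probe set kept as lower minus one kept as higher has to shift by at least 1.17 on the log2 scale by the ratio of means, and its groups have to separate. The median lower change minus the median higher change of the table was -1.72. The differences are therefore a description of the members, with nothing read from their separation. The Cldn2 value minus the Cldn4 value (log2) was -3.83, -3.34 and -3.62 in Stat3 d/d, against -1.95, -2.40 and -2.25 in Stat3 f/f. The level of such a difference depends on the probes, and only its change is read: -1.40, a shift of 2.64-fold against Cldn2. For Cldn2 minus Cldn3 the means were -6.95 ± 0.22 in Stat3 d/d and -5.49 ± 0.55 in Stat3 f/f (SD, n = 3 each), a change of -1.46. Both changes lie between that smallest shift and that of the table's medians, and they depend on the pseudocount. Without a pseudocount they were -1.48 and -1.54, and with a pseudocount of 16 they were -0.87 and -1.03.

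Cldn3 and Cldn4, both kept as higher, need not separate from each other. Cldn3 minus Cldn4 was 3.30, 3.37 and 3.41 in Stat3 d/d, against 3.34, 3.72 and 2.84 in Stat3 f/f, a change of 0.06 with overlapping groups and an SD of 0.44 in Stat3 f/f. This change is small beside that SD, and whether the changes of Cldn3 and Cldn4 differ was not tested. Gjb2 minus Ppl was -1.57 ± 0.16 in Stat3 d/d and 1.01 ± 1.20 in Stat3 f/f (SD, n = 3 each), a change of -2.57, and the values of Stat3 f/f replicate 2 (-0.36) and of Stat3 d/d replicate 2 (-1.38) came closest. These differences were taken between genes chosen with their changes known and got no test.

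**Figure D4:**
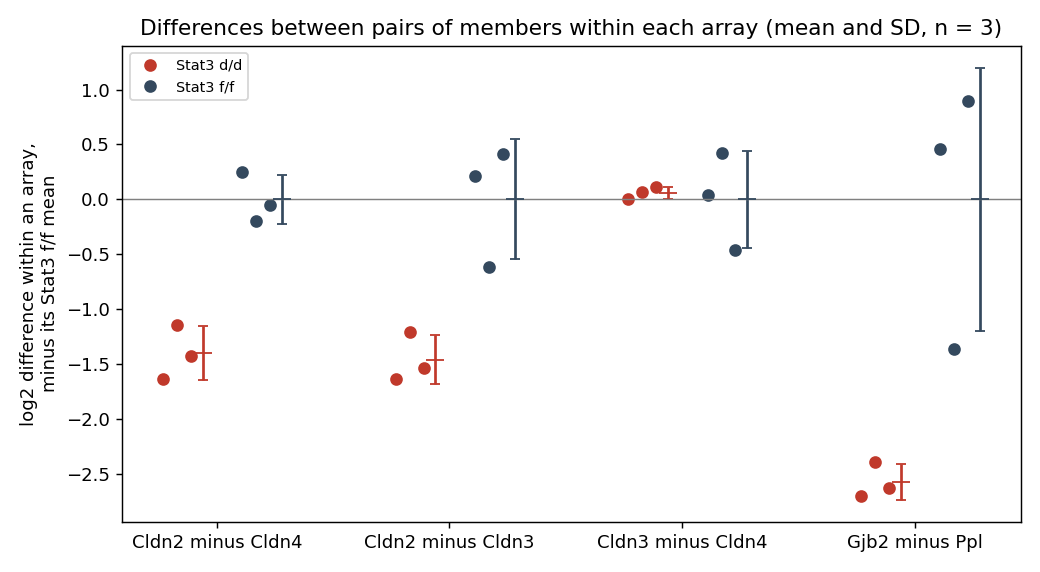
Log2 difference between the members named on the x axis within each array, shown relative to its Stat3 f/f mean (y axis); points are arrays, Stat3 d/d left and Stat3 f/f right in each pair, with mean and SD (n = 3). Cldn2 against Cldn4 or Cldn3 (-1.40 and -1.46) and Gjb2 against Ppl pair a lower with a higher gene and had to separate by the selection of the table, while Cldn3 against Cldn4 (0.06) pairs genes that are both higher.

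Within Stat3 f/f, members differed in which array was high. Gjb2 was highest in Stat3 f/f replicate 4 and lowest in replicate 2, and the brightest Cldn3 probe set had the opposite order, with 453 in replicate 4 and 758 in replicate 2. Cldn10 followed the order of Gjb2. With 3 arrays this is a description. Over all 6 arrays the correlation of log2 values between Gjb2 and that Cldn3 probe set was -0.97, and between Cldn2 and Ppl it was -0.96, both of which include the difference between the groups.

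The genes most like each member over the 6 arrays were named by the highest Pearson correlation of log2 values among 956 other genes, and these points share the group difference by which the table was selected. For Cldn3 they were Pllp (0.995), a tetraspan membrane protein of myelin and epithelia, Zmpste24 (0.989), the protease that matures lamin A, and Ctsd (0.987), the lysosomal cathepsin D. For Cldn4 they were Bcl2l15 (0.996), Ipcef1 (0.996) and Dock10 (0.994), but 34.0% of the genes had a correlation over 0.9 with Cldn4. For Gjb2 they were Eva1a (0.996), Spink12 (0.989), a Kazal-type protease inhibitor, and the tetraspanin Tspan1 (0.983), with 7.64% over 0.9. For Cldn2 they were Shoc2 (0.982), a scaffold of Ras signalling, Adi1 (0.981), an enzyme of methionine salvage, and Hcfc2 (0.981). For Ppl they were Rabgap1l (0.983), the histone gene H2aj (0.982) and the histone demethylase gene Kdm5b (0.978). The share of genes over 0.9 was 11.8% for Cldn3, 5.96% for Cldn2 and 7.32% for Ppl.

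Markers of other cell types that were in the table differed between the groups, as 100% of its probe sets do by selection. Among all genes kept by that selection, 660 of 987 were higher in Stat3 d/d and 327 lower. Of 16 leukocyte markers 8 were in the table, all higher, and their summed intensity ranged from 1040.2 to 2046 in Stat3 d/d, against 368 to 574 in Stat3 f/f. Of 13 stromal markers 2 were in it, Thy1 and Dcn, both lower, with a sum of 250.1 to 316 in Stat3 d/d, against 371 to 585 in Stat3 f/f. Most of this sum was Thy1, at 236 to 302 in Stat3 d/d and 349 to 550 in Stat3 f/f. Dcn read 9.59 to 14.4 in Stat3 d/d and 22.2 to 34.9 in Stat3 f/f. The mesothelial marker Upk3b, 1 of 7, read 21.0 to 29.1 in Stat3 d/d, against 10.9 to 17.6 in Stat3 f/f. Of 24 epithelial markers, among them Epcam, Krt8 and Krt18, 0 were in the table, and likewise 0 of 8 smooth muscle and 0 of 11 endothelial markers, so the labelled tissue could not be checked against them. The part of these cell types in the junction results was not tested.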

How the data were processed

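Per the labels, biotin-labelled cRNA from uterine RNA was hybridised to Affymetrix arrays. The submitters' processing notes name RMA, without a version. The deposited intensity values are on a linear scale, and the step back from the log2 scale of RMA is not recorded. The genome build is not given in the sources used here. Groups come from source names and replicate numbers from titles. Probe sets were named through the platform annotation (1191 with 1 gene symbol, 57 with several, 134 unnamed here), and the 7 member probe sets matched the RefSeq gene table by gene ID. A gene was represented by its probe set with the highest mean.

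The fit used log2(intensity + 1), a scale that understates the change of dim genes, and was made with limma 3.58.1 in R 4.3.3 (lmFit, eBayes, no covariate, all probe sets), with Benjamini-Hochberg adjustment over the 1382 probe sets. The fit was tested on simulated data. The number of arrays limits the precision. Named genes are the members, the junction list genes in the table, Stat3, neighbours of members in the table, and the 3 genes most like each member. Members, lists and tests were chosen with earlier results of these data known. Alternatives were scaling, pseudocount, variance model, array weights, leaving out dim probe sets, 45000 assumed tests, the replicate number as a block and leaving out each array; applying them to the junction lists was chosen after seeing the data. Figures were drawn with matplotlib 3.10.9.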

Additional observations from a re-analysis of the deposited data

How the results depend on the processing

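No member changed direction under any of the alternatives run. This was fixed in advance for all but median centring and quantile normalization, as the groups of 100% of the probe sets do not overlap. The 5 higher member probe sets fell to 0 past the threshold after median centring, after quantile normalization and under 45000 assumed tests. The 2 lower ones became 1 without the dimmest 25% of the probe sets, where Cldn2 was not tested, and 0 under 45000 assumed tests. After median centring the changes that lost their call were 0.21 (Cldn4), 0.31, 0.31 and 0.28 (Cldn3) and 0.26 (Ppl), and after quantile normalization 0.30, 0.26, 0.29, 0.31 and 0.24 in the same order. With 45000 assumed tests the changes are those of the report and lost their call by the number of tests: -0.72 (Cldn2), 0.68 (Cldn4), -1.84 (Gjb2), 0.78, 0.78 and 0.74 (Cldn3) and 0.73 (Ppl). The 5 higher junction list genes became 0 under the same 3 settings, and the 5 lower ones 3 without the dimmest probe sets and 0 under 45000 assumed tests. With a pseudocount of 16 the change of Cldn2 was -0.30 and that of Gjb2 -1.26, and the change of Cldn2 minus Cldn4 was -0.87 and of Cldn2 minus Cldn3 -1.03, as the pseudocount exceeds the Cldn2 intensity. Replicates 1 and 2 occur in both groups, and the deviations of same-numbered arrays correlated at 0.088 and 0.028. The labels do not say what a shared number stands for, and a shared batch was not tested. With the replicate block the changes rest on replicates 1 and 2 of each group. Stat3 f/f replicate 4 and Stat3 d/d replicate 3 have no partner of the same number. The change of Gjb2 was then -1.27, against -1.84 as reported. With this block 5 member probe sets were higher and 2 lower, and Cldn10 (adjusted p = 0.0508) and Cdh6 (0.0808) lost their calls. The share of all probe sets that passed with the block was not counted. Cldn3 minus Cldn4 turned to -0.19 with that block, and ranged from -0.17 (without Stat3 f/f replicate 4) to 0.27 when each array was left out. The calls of the member probe sets held when each array was left out. The table had been selected on these same arrays, so this says little about the members. The share of all probe sets that kept their call was not counted. A background level for the dim Cldn2 probe set was not available from these values.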

Other observations

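Cadherins, the adhesion receptors of the adherens junction, went both ways, with 3 of 23 adherens junction genes in the table. Cdh2 (N-cadherin), of mesenchymal and neural cells, read 11.8, 9.13 and 11.8 in Stat3 d/d, against 19.7, 14.4 and 19.7 in Stat3 f/f (log2 change -0.67, SE 0.19). Cdh4 (R-cadherin) read 9.59, 8.56 and 9.52 in Stat3 d/d, against 15.2, 11.8 and 21.5 in Stat3 f/f (log2 change -0.71, SE 0.21). Cdh6 (K-cadherin) read 13.0, 11.5 and 18.9 in Stat3 d/d, against 8.58, 8.91 and 7.36 in Stat3 f/f (log2 change 0.71, SE 0.20). Cdh6 was 0.24 after median centring and 0.23 after quantile normalization, without passing (adjusted p = 0.315 and 0.349). Cdh4 and Cdh6 are among the dimmest 25% of the probe sets, and the groups of each of the 3 genes did not overlap, as for 100% of the table. E-cadherin (Cdh1) was not in the table and was not analysed here.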
